A study of Mus musculus with 378 samples.

Results

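Klrc1 encodes NKG2A, an inhibitory receptor chain of NK cells and of some CD8 T cells. CD8 T cells from mouse melanomas were divided by whether their library held any Klrc1 signal, once in wild-type (WT) cells and once in cells labelled as lacking Il27ra (KO), and the rest of the transcriptome was compared between both sides of the split. Libraries whose titles mark a single CD8 cell were used if at least 1000 genes were above 0 FPKM (fragments per kilobase of transcript, scaled to the fragments of the library). The groups were chosen by the measured Klrc1 value itself: a cell counted as Klrc1-positive above 0 FPKM and as Klrc1-negative at 0 FPKM, and Klrc1 is left out of the results. This kept 67 WT and 74 KO cells of the 374 single-cell libraries of the series. Of 67 WT cells, 22 were Klrc1-positive and 45 Klrc1-negative. Of 74 KO cells, 36 were Klrc1-positive and 38 Klrc1-negative.

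The cells were infiltrating T cells of B16F10 tumours, a transplanted melanoma line, in C57BL/6 mice that were WT or labelled IL27raKO, and the study asks which T cell genes the cytokine IL-27 induces in the tumour. No treatment or age is given, and all groups share the tumour line and the strain. RNA was read with Smart-seq2, a full-length cDNA method run on each cell in its own well. No animal is named in the labels, and each genotype was therefore 1 sample. Its cells were parts of that sample and not replicates, and no test was possible. Values are therefore means with the SD over cells, and shares of cells with exact Clopper-Pearson 95% intervals that cover counting error only. Where 0 cells held a gene, the limit printed is 3 cells divided by the cells of the group, which is lower than the exact bound. Il27ra, the gene of the IL-27 receptor chain, was above 0 FPKM in 9 of 22 Klrc1-positive and 17 of 45 Klrc1-negative WT cells, and in 20 of 36 and 19 of 38 cells labelled KO. The labelled KO cells were thus not lower in Il27ra, and FPKM per gene do not show whether reads came from a deleted stretch, so KO names the label here. Cd8a or Cd8b1, the chains of the CD8 co-receptor, was found in 22 of 22 and 41 of 45 WT cells and in 35 of 36 and 37 of 38 KO cells.

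NKG2A pairs with CD94, encoded by Klrd1, and the pair binds the non-classical class I molecule Qa-1, encoded by H2-T23 and held together by B2m. Binding recruits phosphatases such as Ptpn6 (SHP-1) and dampens killing. The close relatives NKG2C (Klrc2) and NKG2E (Klrc3) also pair with CD94 but activate the cell through the adaptor Tyrobp, whereas NKG2D (Klrk1) binds stress ligands and signals through Hcst. In tumours NKG2A is known as a checkpoint receptor of antigen-experienced CD8 T cells.

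The genes lie next to each other in the natural killer gene complex of mouse chromosome 6. In the RefSeq annotation of GRCm38.p6, the assembly of mm10, Klrd1 spans chr6:129588092-129598775, Klrk1 chr6:129610323-129623903, Klrc3 chr6:129636263-129643511, Klrc2 chr6:129649602-129660737 and Klrc1 chr6:129666015-129682852. The coding sequence of Klrc2 was identical to that of Klrc1 at 83.1% of 714 aligned bases, and that of Klrc3 at 85.5% of 663. Of all 50-base windows of Klrc2 transcripts 14.6% also occurred in Klrc1, against 7.5% for Klrc3, and 0.0% for Klrd1 and Klrk1. Reads from such windows cannot be assigned to 1 gene by sequence, so Klrc2 and Klrc3 values are uncertain wherever Klrc1 is high, while Klrd1 and Klrk1 share no such window. For the same reason Klrc1 values, and with them the split, are uncertain in cells where Klrc2 or Klrc3 is high. The most alike and the least alike 120-base coding stretches of Klrc1 and Klrc2, from GENCODE M21 transcripts on mm10, are shown because they show where reads can and cannot be told apart. Both genes lie on the minus strand, and capitals mark the bases that differ. The alike stretches, with 2 mismatches, lie in exon sequence between chr6:129677181-129677300 (Klrc1) and chr6:129658700-129659306 (Klrc2). The unlike ones, with 53 mismatches, lie between chr6:129677301-129678342 and chr6:129659307-129660024, so 3 of the 4 stretches are spliced across an intron.
Klrc1, most alike: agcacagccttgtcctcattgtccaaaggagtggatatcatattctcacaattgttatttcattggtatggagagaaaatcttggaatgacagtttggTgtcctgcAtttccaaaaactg
Klrc2, most alike: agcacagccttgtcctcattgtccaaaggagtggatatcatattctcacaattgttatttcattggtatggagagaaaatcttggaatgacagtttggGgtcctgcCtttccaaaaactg
Klrc1, least alike: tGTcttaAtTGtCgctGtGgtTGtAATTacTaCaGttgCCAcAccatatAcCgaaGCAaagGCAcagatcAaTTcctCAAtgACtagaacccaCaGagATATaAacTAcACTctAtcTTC
Klrc2, least alike: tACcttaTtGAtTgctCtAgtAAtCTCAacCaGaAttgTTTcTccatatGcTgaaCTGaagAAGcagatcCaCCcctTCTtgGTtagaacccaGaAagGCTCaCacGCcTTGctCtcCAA

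Klrc1 chose the cells and is described without a test. In positive WT cells it ran from 21.6 to 3539 FPKM with a median of 617 FPKM, and in positive KO cells from 11.3 to 3206 with a median of 1078. No cell lay between 0 and 10 FPKM, so the values just inside the split stood well away from 0. The Klrc1-positive share was 32.8% (exact 95% interval 21.8 to 45.4) of WT and 48.6% (36.9 to 60.6) of KO cells, and those intervals overlapped. Among CD4 cells processed in the same way, a type in which Klrc1 is seldom found, 0 of 79 WT and 4 of 78 KO cells (5.13%) were above 0, at medians of 2307 and 2650.5 genes per cell against 2919 and 2797 in CD8 cells.

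The libraries on both sides of the split differed in quality, most of all in WT. Klrc1-positive WT cells held a median of 3350 genes (range 2155 to 6363) and Klrc1-negative WT cells 2729 (1068 to 5451). The KO medians were 2999.5 (1877 to 5451) and 2753.5 (1476 to 4306). Reads per cell, estimated from the step of 1 read in low FPKM values, had medians of 636992 and 324335 in WT and 626479 and 498006 in KO. Under 100000 estimated reads lay 1 of 22 positive and 13 of 45 negative WT cells, against 0 of 36 and 1 of 38 KO cells. B2m, or every one of Cd3d, Cd3e and Cd3g, was missing in 0 and 11 WT cells and in 0 and 3 KO cells. When the cells of a genotype were put in 4 bins by genes detected, 2 of 17 WT cells in the lowest bin and 8 of 17 in the highest were Klrc1-positive, and 8 of 19 and 13 of 19 KO cells. The part that depth and quality have in the differences below was not tested; differences are also given within those bins ("within bins") and, where they move, without the cells lacking B2m or Cd3 genes.

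**Figure D1:**
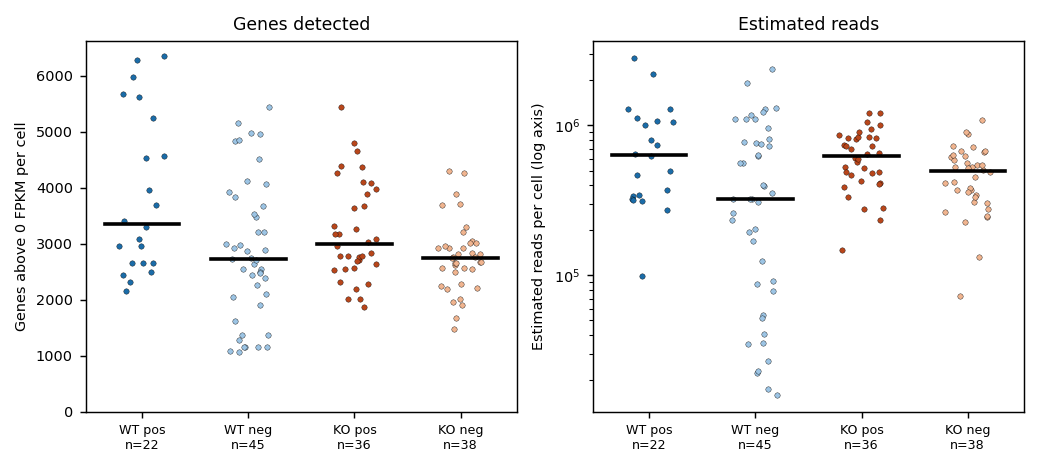
Genes above 0 FPKM (left, linear axis) and estimated reads (right, log axis) of each kept CD8 cell, by genotype and Klrc1 group. Points are cells and bars are medians. The 13 Klrc1-negative WT cells under 100000 reads form a low tail. Klrc1-positive WT and Klrc1-negative KO cells held 1 such cell each, and Klrc1-positive KO cells 0.

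Genes detected in 10% or more of the cells on either side of the split were compared by their mean log2(FPKM + 1), Klrc1-positive minus Klrc1-negative, and a difference of at least 1 was counted. In WT 3069 of 9284 genes (33.1%) were higher by at least 1 in Klrc1-positive cells and 46 (0.495%) lower, with a median difference of 0.60 over all tested genes. In KO 1327 of 8851 genes (15%) were higher and 2.09% lower, with a median of 0.21. Within bins the WT shares came to 13.8% higher and 3.08% lower with a median of 0.17, and the KO shares to 10.3% and 4.36% with a median of 0.07. Without the cells lacking B2m or Cd3 genes they were 17.3% and 2.18% in WT and 18.2% and 1.67% in KO. Centred on the median gene they were 16.8% and 6.89% in WT and 10.7% and 4.39% in KO. The WT contrast therefore held a broad shift that depth binning removed in part, and a WT gene is read here against that shift. Of 8238 genes tested in both genotypes, 841 were higher by at least 1 in both, which is 28.4% of those higher in WT and 64.1% of those higher in KO; 4 were lower in both. The 12 genes with the largest difference in the weaker genotype were Ccl5, Cxcr6, Klrc2, Prf1, Cd2, Klrd1, Cd3g, Klrk1, Ctsd, Gars, Nkg7 and Bcl2a1b. They include the CD94 and NKG2D receptor genes, the killing machinery, and the chemokine and homing receptor Ccl5 and Cxcr6.

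**Figure D2:**
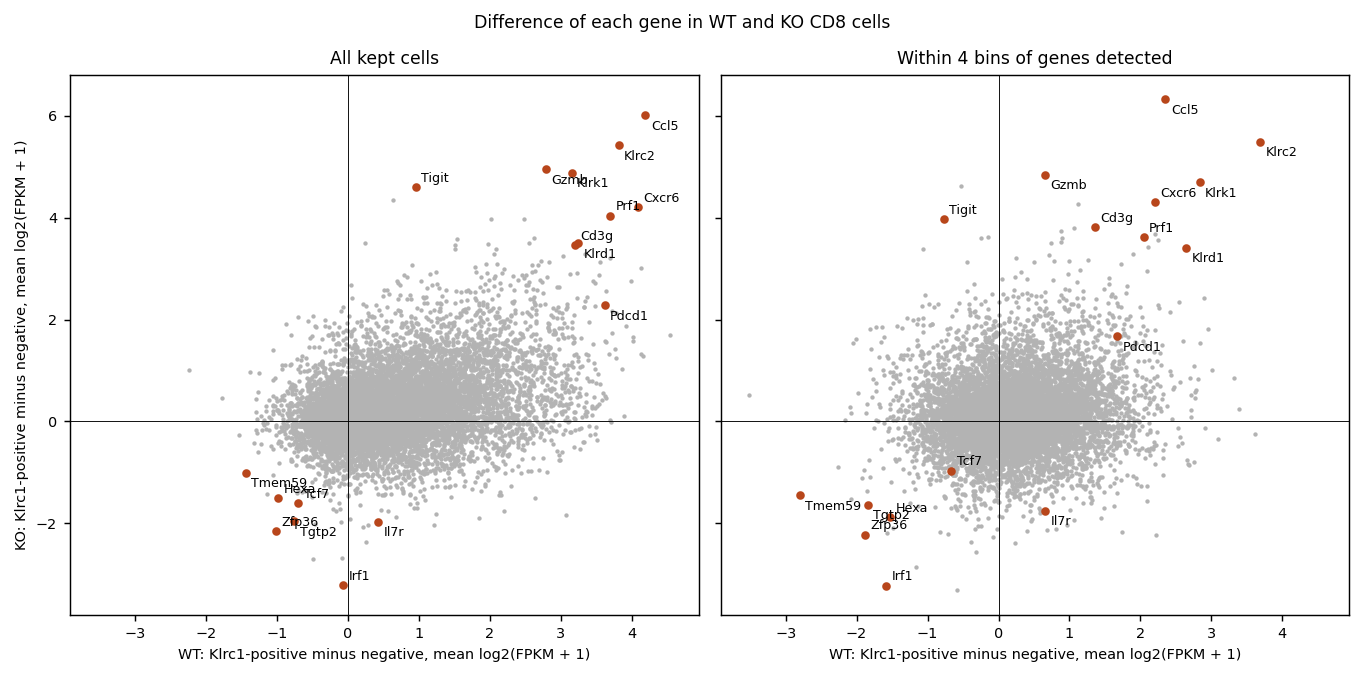
Difference of each gene tested in at least 1 genotype, WT on the x axis and KO on the y axis (mean log2(FPKM + 1), Klrc1-positive minus Klrc1-negative), over all kept cells (left) and within 4 bins of genes detected (right). Named genes are orange; Ccl5, Klrc2, Klrk1, Klrd1, Cxcr6 and Prf1 stay in the upper right in both panels, while Tigit and Gzmb lie high in KO and near 0 in WT on the right.

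The partners of NKG2A stood higher in Klrc1-positive cells of both genotypes. Klrd1, the CD94 chain that NKG2A needs, ran from 0 to 12.18 (median 8.01) in positive and from 0 to 11.60 (median 0) in negative WT cells, and from 0 to 13.32 (median 9.51) and from 0 to 11.13 (median 5.12) in KO cells, all as log2(FPKM + 1). The ranges overlapped because every group held cells at 0, and the shares of cells separated the groups better. Klrd1 was found in 16 of 22 positive cells (72.7%, interval 49.8 to 89.3) and 17 of 45 negative cells (37.8%, 23.8 to 53.5) in WT, and in 31 of 36 (86.1%, 70.5 to 95.3) and 20 of 38 (52.6%, 35.8 to 69) in KO. Its means were 6.60 ± 4.38 (SD over 22 cells) and 3.35 ± 4.53 (45 cells) in WT, a difference of 3.25, and 8.20 ± 3.68 and 4.70 ± 4.74 in KO, a difference of 3.50. Within bins these were 2.65 and 3.41. CD94 can pair with NKG2C and NKG2E as well, and 6 WT and 5 KO cells with Klrc1 had no Klrd1 signal, among which a missed transcript and a true absence cannot be told apart.

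Klrk1, the activating NKG2D receptor that is not a partner of NKG2A, also differed across the split. It was found in 13 of 22 and 15 of 45 WT cells (59.1%, 36.4 to 79.3, against 33.3%, 20 to 49) and in 32 of 36 and 14 of 38 KO cells (88.9%, 73.9 to 96.9, against 36.8%, 21.8 to 54). Its medians were 6.62 and 0 in WT and 8.56 and 0 in KO. The difference of means was 3.16 in WT (4.88 ± 4.26 against 1.72 ± 2.85) and 4.88 in KO (7.68 ± 3.07 against 2.80 ± 3.82), or 2.84 and 4.70 within bins. Thinned to 100000 estimated reads, with shallower cells left out, the Klrk1 shares were 61.7% and 33.2% in WT and 87.8% and 37.8% in KO. Klrd1 shares treated so were 75.8% and 50.9% in WT, closer than before. Both receptor genes were present together in 11 of 22 and 8 of 45 WT cells and in 27 of 36 and 7 of 38 KO cells. Neither was present in 4 of 22 and 21 of 45 WT cells; in KO this was 0 of 36 positive cells, which allows a share of up to 8.33%, and 11 of 38 negative cells.

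Klrc2, the activating NKG2C gene, was tied closely to Klrc1, with which it shares sequence. It was found in 18 of 22 and 2 of 45 WT cells and in 34 of 36 and 0 of 38 KO cells, with differences of 3.82 and 5.42. Where both were above 0, Klrc2 stood at a median of 0.04 times the FPKM of Klrc1 in each genotype, with the ratio running from 0.013 to 6.64 in 18 WT cells and from 0.016 to 22.4 in 34 KO cells. The largest ratios belong to cells with more Klrc2 than Klrc1, which the low median does not describe. Klrc3 was rare, in 2 of 22 and 2 of 45 WT cells and in 6 of 36 and 1 of 38 KO cells.

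The signalling partners were mixed. Of 15 genes of NKG2 signalling and ligands, 6 of 13 tested were higher by at least 1 and 1 lower in WT (median 0.69), and 5 of 15 were higher and 1 lower in KO (median 0.37), both medians close to that of all genes. Of all tested genes 33.1% were higher and 0.495% lower in WT, and 15% and 2.09% in KO. Hcst, the adaptor of NKG2D, was in 30 of 36 positive and 19 of 38 negative KO cells (difference 2.75, within bins 3.13). In WT it was in 17 of 22 and 28 of 45 cells, and the difference turned from 0.69 to -0.45 within bins. Ptpn6, the phosphatase that NKG2A recruits, was higher by 1.93 in WT and 2.70 in KO, and by 0.74 and 2.04 within bins. Zap70, the kinase of the T cell receptor, differed by 2.68 and 3.08 (0.99 and 3.16 within bins). The adaptors Tyrobp and Fcer1g, which NK and myeloid cells use, had negative differences. Both were found in 0 of 22 positive WT cells, which allows a share of up to 13.6%. Fcer1g was in 6 of 45 negative WT cells and in 4 of 36 and 9 of 38 KO cells (differences -1.14 and -1.42), and Tyrobp in 2 of 45, 4 of 36 and 5 of 38. Without the cells that held 3 or more markers of macrophages, dendritic cells or class II presentation (3 and 2 WT and 7 and 5 KO cells) the KO difference of Fcer1g was -0.30, and that of Tyrobp turned from -0.44 to 1.10. The ligand gene H2-T23 was above 0 in 22 of 22 positive WT cells and in at least 95.6% of every other group, and differed by 0.30 in WT and 0.37 in KO. Its partner B2m was in 22 of 22 and 37 of 45 WT cells and in every KO cell, and differed by 2.76 in WT (0.80 within bins) and 0.45 in KO.

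Other receptors of the NK type were in part higher too. Among 21 such genes, Klrd1, Klrk1 and Klrc2 included, 9 of 13 tested were higher by at least 1 in WT (median 1.49, within bins 1.03) and 10 of 14 in KO (1.16, within bins 1.09), and none of the tested members was lower by 1 in either genotype. Leaving those 3 out, 6 of 10 were higher in WT and 7 of 11 in KO, against 33.1% and 15% of all tested genes. Cd160 differed by 2.25 in WT and 0.60 in KO, Klre1 by 0.58 and 2.50, and Klrb1c (NK1.1) by 0.13 and 1.47, the last with 7 of 36 positive KO cells and 0 of 38 negative ones. Cd226 and Cd96, which compete with Tigit for the same ligands, differed by 1.96 and 1.35 in WT and by 1.18 and 1.42 in KO. Within bins they differed by 1.22 and 0.42 in WT and by 1.16 and 1.58 in KO. Klrg1, a receptor of short-lived effector cells, differed little (0.14 and 0.74). The Ly49 receptors, the other large inhibitory family of mouse NK cells, did not follow Klrc1: of 10 genes, 1 in WT and 4 in KO passed the filter, none differed by 1, and the medians were -0.07 and -0.37. Their shares of cells were at most 15.8% in any group. Ncr1, a defining NK cell gene, was in 0 of 22 and 2 of 45 WT cells and in 1 of 36 and 0 of 38 KO cells, whereas Cd3g was in every Klrc1-positive cell of both genotypes.

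**Figure D3:**
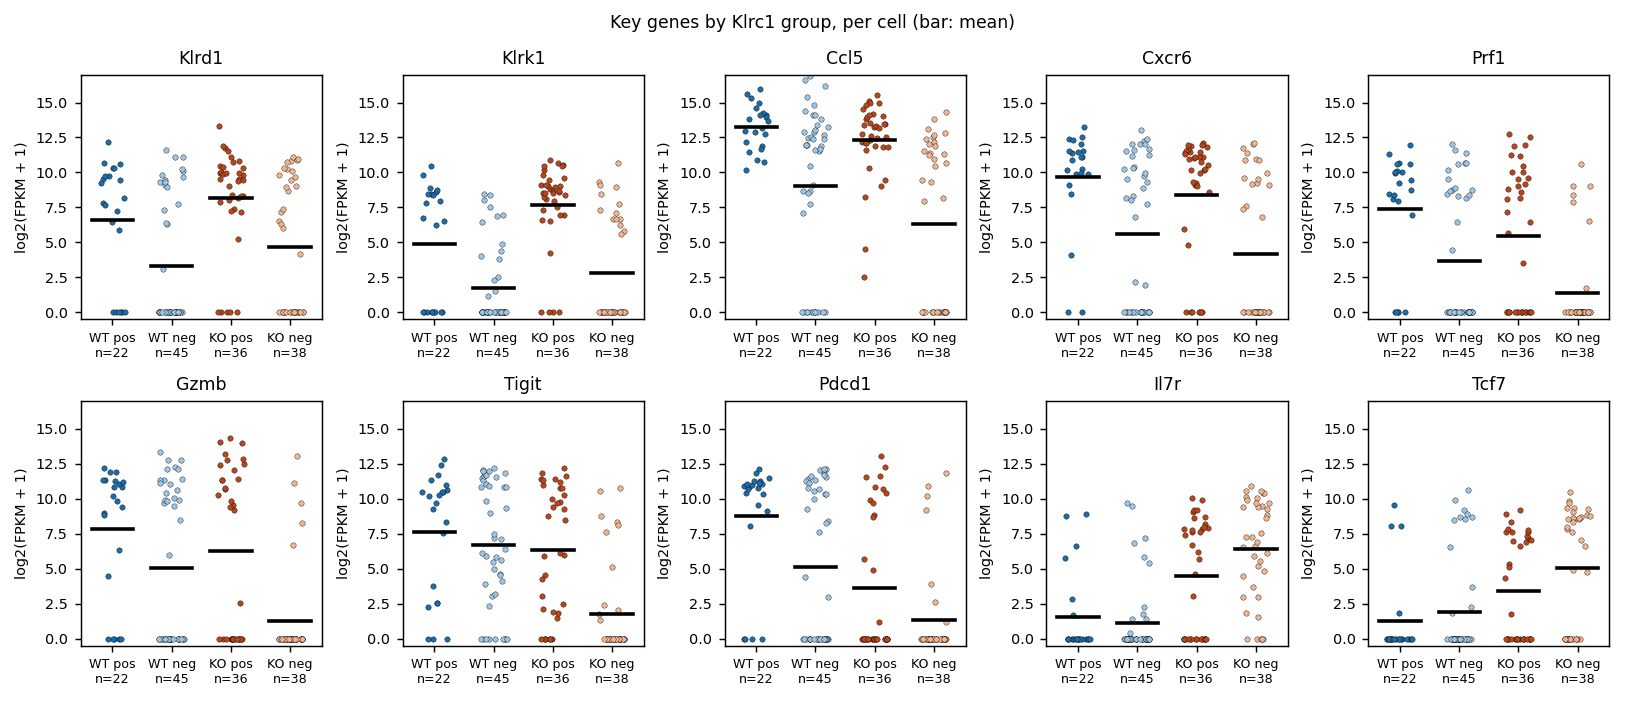
Level of 10 genes in each kept cell, log2(FPKM + 1), by genotype and Klrc1 group. Points are cells and bars are means; all groups hold cells at 0 except Ccl5 in Klrc1-positive cells, and Il7r and Tcf7 are the 2 genes whose KO means are higher in Klrc1-negative cells.

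Genes of the cytotoxic granule were higher in Klrc1-positive cells, and in KO the list median was nearly as large within bins. Of 23 genes, 13 of 18 tested were higher by at least 1 in WT (median 1.47) and 13 of 20 in KO (median 2.28), against 33.1% and 15% of all tested genes. None of the tested members was lower by 1 over all kept cells. Within bins 4 of the 18 were higher in WT and 12 of the 20 in KO, against 13.8% and 10.3% of all. Within bins 1 was lower in each genotype, Stx11 in WT (-1.40) and Ctsc in KO, against 3.08% and 4.36% of all. The median within bins was 0.58 in WT and 2.18 in KO, and 0.28 and 1.74 when cells lacking B2m or Cd3 genes were also left out. Prf1, the pore-forming protein perforin, was found in 17 of 22 and 18 of 45 WT cells and in 21 of 36 and 7 of 38 KO cells. Its medians were 9.01 and 0 in WT and 6.82 and 0 in KO, and its highest values were 11.99, 12.02, 12.77 and 10.60, so single Klrc1-negative cells reached the levels of positive ones. The difference was 3.70 in WT (7.39 ± 4.26 against 3.69 ± 4.72) and 4.04 in KO (5.44 ± 4.99 against 1.40 ± 3.20), and 2.04 and 3.62 within bins.

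Gzmb, the protease granzyme B that perforin lets into target cells, differed by 4.95 in KO, where 20 of 36 positive and 5 of 38 negative cells held it (55.6%, 38.1 to 72.1, against 13.2%, 4.41 to 28.1). Its KO medians were 9.29 and 0, with highest values of 14.32 and 13.03. In WT it was in 17 of 22 and 21 of 45 cells with medians of 10.04 and 0, and the difference of 2.79 came to 0.65 within bins and 1.16 without cells lacking B2m or Cd3 genes. Gzmb and Prf1 were found together in 16 of 22 and 17 of 45 WT cells and in 13 of 36 and 1 of 38 KO cells. Gzmk, a granzyme of memory-like cells, was in 38.9% of positive KO cells and in 0 of 38 negative ones, which allows a share of up to 7.89%; it differed by 3.59 in KO, and in WT by 1.54, or -0.15 within bins. Fasl, the death ligand, differed by 4.35 in KO (77.8% against 21.1% of cells) and by 0.64 in WT. Nkg7, a granule membrane protein, was in 22 of 22 and 32 of 45 WT cells and in 35 of 36 and 30 of 38 KO cells, with differences of 4.13 and 3.02 (2.21 and 3.68 within bins). Without the cells holding 3 or more markers of other cells the KO difference of Nkg7 was 1.37. Ctsd, a lysosomal protease, differed by 3.55 and 3.13 (1.89 and 3.29 within bins). Ctsc, which processes granzymes, went from 0.95 in WT to -0.54 within bins, and from -0.89 in KO to -1.665 within bins.

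The windows just upstream of 4 genes are printed because Runx3 and the T-box factors Tbx21 and Eomes are textbook regulators of killer genes. Cxcr6, Prf1 and Klrk1 were among the 12 genes higher in both genotypes. Gzmb differed by 4.95 in KO and 2.79 in WT, but by 4.845 and 0.65 within bins. The windows are the 250 bases before the transcript start that the RefSeq promoter table on GRCm38.p6 gives, which for Prf1 and Klrk1 lies within the span of the gene so that part of the window does too, read 5′ to 3′ on the strand of the gene. Capitals mark the letters TGTGGT or ACCACA (Runx) and AGGTGT or ACACCT (T-box), the 2 forms being the same motif on either strand. Of 32851 such windows, 14% held the Runx letters and 11.8% the T-box letters. Among the 12 genes higher in both genotypes 9 had a window, of which 5 held the Runx and 3 the T-box letters. Among the 12 lower in both 9 had one, of which 2 and 0 did. A gene was counted if any of its windows matched, whereas 14% and 11.8% are shares of single windows, so the counts and shares are unlike. Both sets of 12 were picked from these same data, so the counts show no enrichment. All 4 printed windows hold the Runx letters, and Gzmb is not among the 12. Such matches are letters in a window and not sites of binding, and regulation by these factors was not tested. Cxcr6 lies at chr9:123806227-123806476 on the plus strand, Prf1 at chr10:61297586-61297835 on the plus strand, Klrk1 at chr6:129623865-129624114 on the minus strand and Gzmb at chr14:56262335-56262584 on the minus strand.
Cxcr6: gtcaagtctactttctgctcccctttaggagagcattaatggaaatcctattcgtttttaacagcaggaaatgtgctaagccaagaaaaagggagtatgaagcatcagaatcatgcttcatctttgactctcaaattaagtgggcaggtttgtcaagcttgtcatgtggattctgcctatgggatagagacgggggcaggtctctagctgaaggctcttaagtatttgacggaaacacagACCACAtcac
Prf1: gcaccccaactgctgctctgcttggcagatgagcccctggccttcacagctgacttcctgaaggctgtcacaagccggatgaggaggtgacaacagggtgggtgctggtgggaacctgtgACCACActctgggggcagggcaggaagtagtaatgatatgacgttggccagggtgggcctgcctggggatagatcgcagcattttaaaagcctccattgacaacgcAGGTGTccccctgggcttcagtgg
Klrk1: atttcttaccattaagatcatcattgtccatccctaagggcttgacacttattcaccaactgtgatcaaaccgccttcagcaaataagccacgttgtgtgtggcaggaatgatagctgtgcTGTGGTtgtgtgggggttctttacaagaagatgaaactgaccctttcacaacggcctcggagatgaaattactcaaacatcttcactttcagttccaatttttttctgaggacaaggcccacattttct
Gzmb: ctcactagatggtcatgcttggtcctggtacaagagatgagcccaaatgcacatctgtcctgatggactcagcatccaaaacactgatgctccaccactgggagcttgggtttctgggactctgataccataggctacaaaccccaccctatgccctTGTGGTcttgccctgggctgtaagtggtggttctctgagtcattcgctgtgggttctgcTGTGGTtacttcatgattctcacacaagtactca

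Ccl5, a chemokine that effector T cells release, had the largest difference of the 12 genes in both genotypes. Every Klrc1-positive cell held it, 22 of 22 in WT and 36 of 36 in KO, against 33 of 45 and 21 of 38 negative cells. It ran from 10.20 to 15.96 (median 13.44) in positive and from 0 to 16.91 (median 11.92) in negative WT cells, and from 2.54 to 15.54 (median 12.96) and from 0 to 14.35 (median 8.76) in KO cells. The difference was 4.20 in WT and 6.01 in KO, and 2.35 and 6.33 within bins. Thinned to 100000 estimated reads the WT shares were 100% and 96.9%, so the WT split of Ccl5 was narrow among deeper cells, while the KO shares stayed at 96.1% and 56.8%. The other chemokine and cytokine genes were mixed. Of 19 genes, 3 of 11 tested were higher by at least 1 in WT and 5 of 11 in KO, with medians of 0.61 and 1.00 (-0.11 and 0.91 within bins). Of all tested genes 33.1% and 15% were, so the WT count was not above that share. Ifng, the interferon of killer cells, was in 9 of 22 and 10 of 45 WT cells and in 15 of 36 and 2 of 38 KO cells, with differences of 1.24 and 2.93, or 0.41 and 2.21 within bins.

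Cxcr6, a chemokine receptor of tissue-resident and tumour-infiltrating T cells, was in 20 of 22 and 26 of 45 WT cells and in 29 of 36 and 16 of 38 KO cells. Its medians were 11 and 7.77 in WT and 10.41 and 0 in KO, with differences of 4.09 and 4.20, and 2.21 and 4.31 within bins. Of 22 residency and homing genes, 11 of 18 tested were higher by at least 1 in WT (median 1.65, within bins 0.43), and 11 of 21 were higher and 3 lower in KO (1.40, within bins 1.19). Of all tested genes 33.1% were higher in WT, and 15% higher and 2.09% lower in KO. Within bins 6 of 18 and 11 of 21 were higher, against 13.8% and 10.3% of all. Ccr2, a receptor of inflammatory homing, differed by 1.66 and 2.57. Cx3cr1, which marks effector cells of the blood, differed by 2.43 in KO and by 0.06 in WT. The 3 lower in KO were Itgae, Itgb7 and Ccr7. Itgae, the CD103 chain that holds T cells to epithelium, was in 0 of 36 positive and 10 of 38 negative KO cells (difference -1.72). In WT it was in 1 of 22 and 1 of 45 cells, too few to compare. The integrin chain Itgb7, a partner of CD103, differed by -1.70 in KO and 0.94 in WT.

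Several checkpoint receptors were more frequent in Klrc1-positive cells. Of 18 coinhibitory genes, 6 of 13 tested were higher by at least 1 in WT (median 0.96, within bins 0.47). In KO 7 of 16 were higher and 3 lower (median 0.55, within bins 0.29). Of all tested genes 33.1% were higher in WT, and 15% higher and 2.09% lower in KO. Within bins 3 of the 13 were higher in WT and 6 of the 16 in KO, against 13.8% and 10.3% of all. Pdcd1, the PD-1 receptor, was in 18 of 22 (81.8%, 59.7 to 94.8) and 23 of 45 (51.1%, 35.8 to 66.3) WT cells, and in 14 of 36 (38.9%, 23.1 to 56.5) and 7 of 38 (18.4%, 7.74 to 34.3) KO cells. Its medians were 10.81 and 2.97 in WT and 0 and 0 in KO, so the KO difference rested on the cells above 0. The difference was 3.62 and 2.28, and 1.68 in each genotype within bins. Lag3, which binds class II, differed by 3.63 in WT and 1.59 in KO, or 1.92 and 0.42 within bins. Havcr2, the Tim-3 receptor of chronically stimulated cells, was in 17 of 22 and 21 of 45 WT cells and in 12 of 36 and 2 of 38 KO cells (differences 2.96 and 2.26, within bins 1.01 and 1.65). Tigit, a receptor for ligands of the poliovirus receptor family, was in 19 of 22 and 36 of 45 WT cells but in 29 of 36 and 11 of 38 KO cells. Its KO difference was 4.60 (6.36 ± 4.57 against 1.76 ± 3.38, within bins 3.97), and its WT difference of 0.96 was -0.77 within bins. Whether the genotypes differ in this was not tested. In the other direction the ligand Cd274 (PD-L1) differed by -1.76, Btla by -1.31 and Lair1 by -1.09 in KO, against 0.57, 0.77 and 0.10 in WT.

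Counted in the same cell, Pdcd1, Lag3 and Havcr2 occurred together in 16 of 22 Klrc1-positive WT cells (72.7%, 49.8 to 89.3) and 16 of 45 Klrc1-negative ones (35.6%, 21.9 to 51.2). In KO they did so in 8 of 36 positive cells (22.2%, 10.1 to 39.2) and in 0 of 38 negative ones. Every one of those 40 cells also held Tigit. None of the 4 genes was found in 2 of 22 and 6 of 45 WT cells and in 5 of 36 and 19 of 38 KO cells. In WT, then, most Klrc1-positive cells held all 4 genes, whereas in KO 13 of 36 held 1 of them and 5 held none. Without cells lacking B2m or Cd3 genes, the share with all 4 genes was 16 of 34 (47.1%) in negative WT cells, with the other groups unaltered apart from 0 of 35 in negative KO cells.

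**Figure D4:**
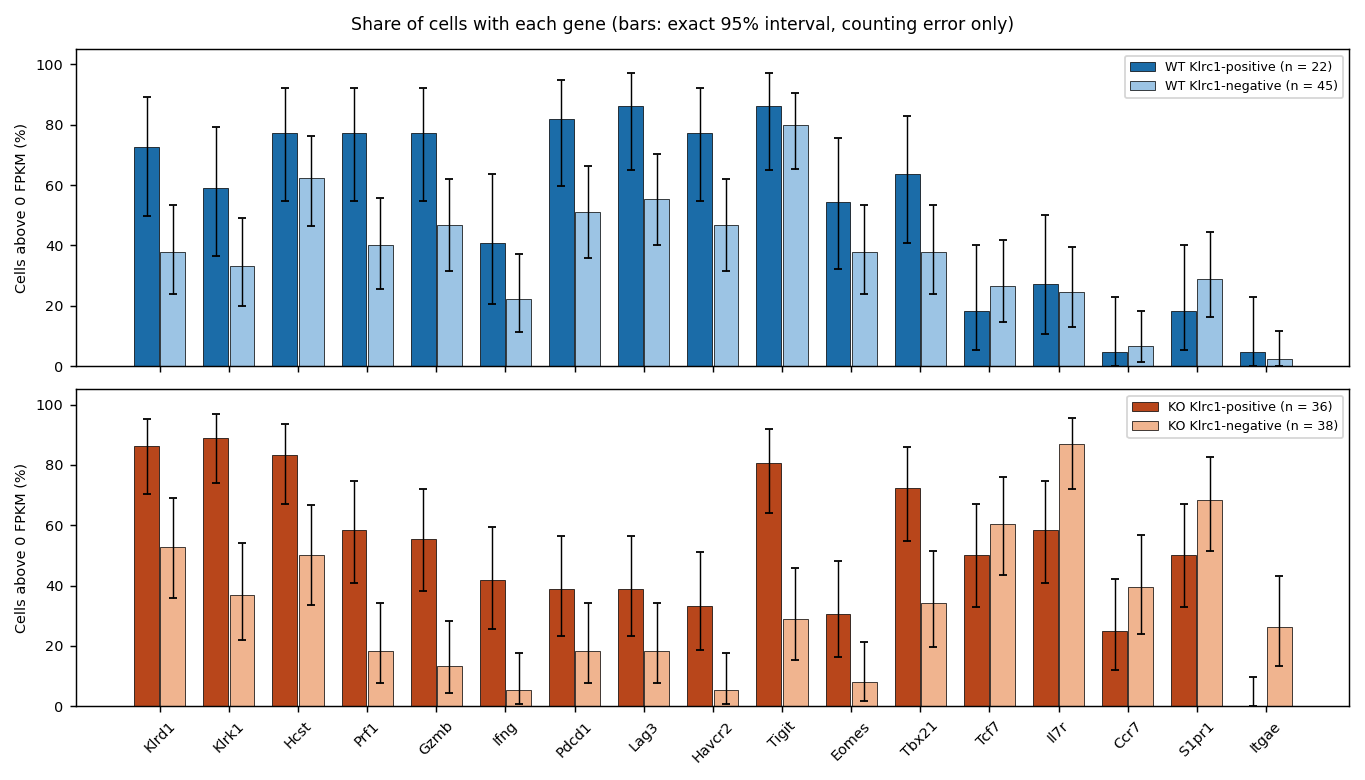
Share of cells above 0 FPKM for 17 genes in WT (top) and KO (bottom) CD8 cells, Klrc1-positive and Klrc1-negative; whiskers are exact 95% intervals that cover counting error only. Receptor, granule and checkpoint genes were more frequent in positive cells of both genotypes, and Tcf7, Il7r, Ccr7, S1pr1 and Itgae were more frequent in negative KO cells.

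Transcription factors of effector cells were partly higher. Of 24 factor genes, 15 of 23 tested were higher by at least 1 in WT (median 1.31, within bins 0.41) and 9 of 22 in KO (0.80, within bins 0.71). Of all tested genes 33.1% and 15% were. Within bins 5 of 23 were higher and 2 lower in WT, against 13.8% and 3.08% of all. In KO 6 of 22 were higher within bins, against 10.3%. Tbx21 (T-bet), which drives killer and interferon genes, was in 14 of 22 and 17 of 45 WT cells and in 26 of 36 and 13 of 38 KO cells, with differences of 2.16 and 2.60 (1.59 and 2.47 within bins). Eomes, its relative in memory and exhausted cells, was in 12 of 22 and 17 of 45 WT cells and in 11 of 36 and 3 of 38 KO cells, with differences of 1.95 and 1.57 (1.33 and 1.56 within bins). Id2, which keeps effector cells from a memory fate, differed by 2.62 and 3.61 (0.90 and 3.59 within bins), and Bhlhe40, a factor of resident and effector cells, by 2.46 and 2.87 (1.29 and 2.07 within bins). Tox, the factor of exhausted cells, differed by 1.81 in WT and 0.68 in KO (0.41 and 0.60 within bins). Prdm1 and Irf4, factors of terminal and activated cells, stayed within 1 in both genotypes.

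Several genes of naive and memory cells were lower in Klrc1-positive KO cells. Of 20 genes, 1 of 14 tested was higher by at least 1 and none lower in WT (median -0.07). Of all tested WT genes 33.1% were higher and 0.495% lower, with a median of 0.60. Without cells lacking B2m or Cd3 genes the WT list median was -0.29, against 0.28 for all tested genes. In KO 1 of 18 was higher and 7 lower (median -0.81, within bins -0.49), against 15% and 2.09% of all tested genes. Within bins 4 of the 18 were lower in KO, against 4.36% of all. Il7r, the IL-7 receptor that keeps memory cells alive, ran from 0 to 10.06 (median 5.97) in positive and from 0 to 10.92 (median 7.08) in negative KO cells. It was in 21 of 36 (58.3%, 40.8 to 74.5) and 33 of 38 (86.8%, 71.9 to 95.6) of them, with a difference of -1.97 (4.48 ± 4.05 against 6.44 ± 3.64). In WT it was in 6 of 22 and 11 of 45 cells and differed by 0.43. Ccr7, the chemokine receptor that guides naive cells to lymph nodes, differed by -1.98 in KO (9 of 36 and 15 of 38 cells) and -0.10 in WT. Tcf7, the factor of naive and stem-like cells, was in 18 of 36 and 23 of 38 KO cells and in 4 of 22 and 12 of 45 WT cells, with differences of -1.61 and -0.70. S1pr1, which lets T cells leave tissue, differed by -1.35 and -0.71. Within bins the KO values of Tcf7 and S1pr1 were -0.97 and -0.47, no longer past 1. Without cells lacking B2m or Cd3 genes their WT values were -1.32 and -1.30, and their KO values -2.04 and -1.785. Bcl2, a survival gene on the same list, was the exception, higher by 1.49 in KO and 1.41 in WT, and by 2.09 in KO and 1.6 in WT within bins. Tcf7 without Gzmb was found in 12 of 36 and 21 of 38 KO cells and in 4 of 22 and 10 of 45 WT cells. The share of KO cells with Tcf7 was 50% (32.9 to 67.1) in positive and 60.5% (43.4 to 76) in negative cells, with intervals that overlapped.

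**Figure D5:**
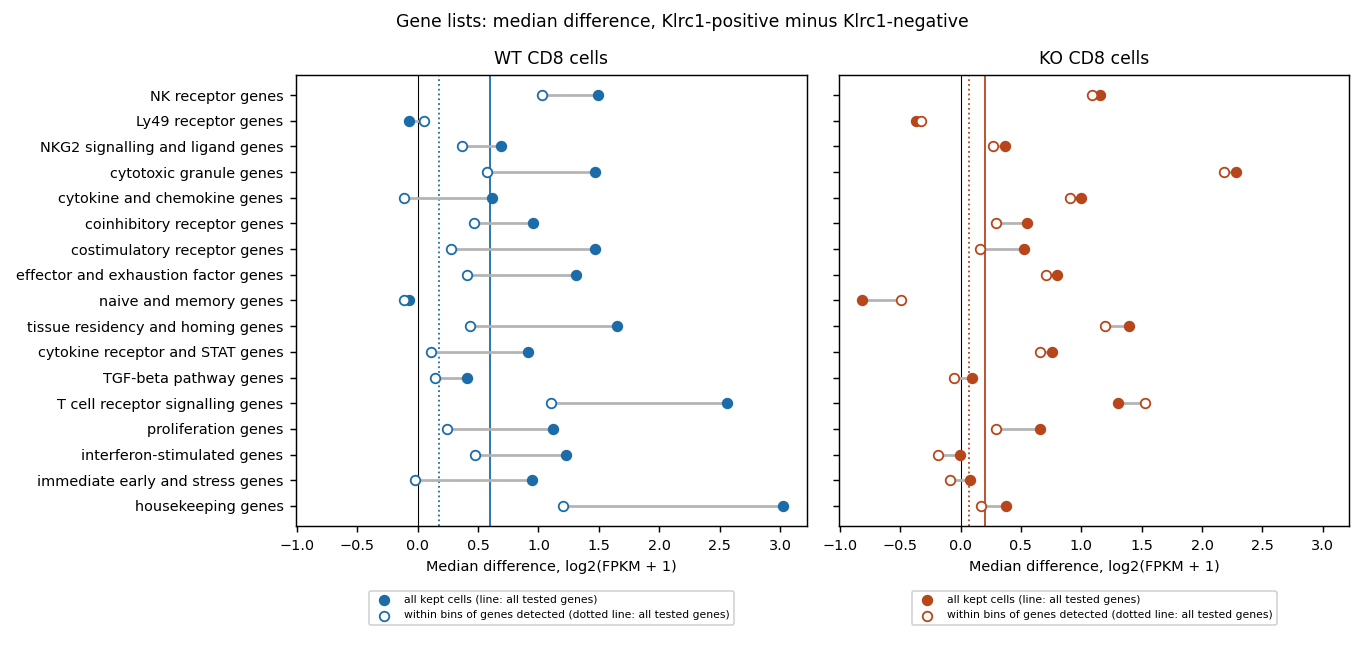
Median difference of 17 gene lists (Klrc1-positive minus Klrc1-negative, log2(FPKM + 1)) in WT (left) and KO (right), over all kept cells (filled) and within 4 bins of genes detected (open); vertical lines are the medians of all tested genes. In WT the housekeeping list had a median of 3.03 and T cell receptor signalling 2.56, both far lower within bins, while in KO the cytotoxic list led at 2.28.

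T cell identity genes were also higher in Klrc1-positive cells, and in WT so were genes that every cell uses. Of 18 T cell receptor signalling genes, 14 were higher by at least 1 in WT and 13 in KO, with medians of 2.56 and 1.30 (1.10 and 1.53 within bins). Of all tested genes 33.1% and 15% were. Cd3g, a chain of the receptor complex, was in 22 of 22 and 32 of 45 WT cells and in 36 of 36 and 28 of 38 KO cells (differences 3.21 and 3.46, within bins 1.36 and 3.81). Cd2, an adhesion receptor, differed by 3.34 and 3.29 (2.25 and 3.57 within bins), and Cd8b1 by 3.79 and 2.13. The receptor chains of IL-2 and IL-15 were alike: Il2rb differed by 2.76 and 2.52 and Il2rg by 3.64 and 1.55. Of 16 housekeeping genes, 15 were higher by at least 1 in WT, with a median of 3.03, and 0 in KO, with a median of 0.38. Within bins the WT median was 1.20, without cells lacking B2m or Cd3 genes 0.88, and with both 0.61. The part of library quality in the other WT differences was not tested. Among the members of all 17 lists Klrc2 (3.69), Cd48 (2.95), Klrk1 (2.84) and Klrd1 (2.65) had the largest WT values within bins, Cd48 being an adhesion receptor of lymphocytes. With bins and without those cells together Klrc2, Cd48, Klrk1 and Klrd1 were at 3.71, 2.90, 2.77 and 2.08. The same values were 1.98 for Ly6a, 1.13 for Ccl5, 1.82 for Cxcr6, 1.61 for Prf1, 0.33 for Gzmb, 1.20 for Pdcd1, 1.6 for Lag3 and 1.23 for Havcr2.

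Among the 12 genes lower in Klrc1-positive cells of both genotypes by the same rule were Zfp36, Tmem59, Hexa, Icam1, Bambi-ps1, Tgtp2, Cnot8, S1pr1, Tcf7, Syngr2 and Hdac4, of which only Zfp36 and Tmem59 reached 1 in both. Zfp36, which destabilises cytokine mRNA, was in 7 of 22 and 22 of 45 WT cells and in 20 of 36 and 28 of 38 KO cells, with differences of -1.01 and -2.16 (-1.88 and -2.22 within bins). Tmem59 differed by -1.44 and -1.01, and Hexa, a lysosomal enzyme, by -0.98 and -1.51. Irf1, an interferon-induced factor outside those 12, differed by -3.21 in KO, with medians of 1.29 and 8.68 and 19 of 36 and 27 of 38 cells, and by -0.07 in WT (-1.58 within bins). Without the cells holding 3 or more such markers of macrophages, dendritic cells or class II presentation these KO differences were -2.13 for Zfp36, -0.89 for Hexa and -3.75 for Irf1.

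Interferon-stimulated genes had different medians in the genotypes, a difference that was not tested: 15 of 27 tested were higher by at least 1 in WT (median 1.23, within bins 0.48), against 5 higher and 3 lower of 30 in KO (median -0.00, within bins -0.19). Ly6a (Sca-1) was higher in both, by 3.33 and 2.25. Psmb8, a subunit of the immunoproteasome, differed by 3.48 in WT and 0.48 in KO (1.37 and 0.29 within bins). Immediate early genes had medians of 0.95 and 0.08 (-0.02 and -0.08 within bins), with Fos at 0.18 in WT (-0.33 within bins) and -1.38 in KO. Of 35 proliferation genes, 19 were higher by at least 1 in WT (median 1.12, within bins 0.24) and 7 of 27 tested in KO (0.66, within bins 0.29). Within bins 5 of 35 and 2 of 27 were higher, against 13.8% and 10.3% of all tested genes. Over all kept cells 33.1% of all tested genes were higher in WT, and 15% higher and 2.09% lower in KO. Those shares also stand against the interferon-stimulated counts. Mki67, a marker of cycling cells, was in 9 of 22 and 17 of 45 WT cells and in 8 of 36 and 4 of 38 KO cells, with intervals that overlapped in each genotype. Of 12 TGF-beta pathway genes, 2 of 10 tested were higher in WT and 0 of 11 in KO, both below the shares of all tested genes.

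Compared between genotypes within 1 side of the split, Klrc1-positive KO cells were lower than Klrc1-positive WT cells in many genes: of 9305 genes 4.05% were higher by at least 1 in KO and 18.9% lower, with a median of -0.30, or 6.59% and 11.8% within bins. Among Klrc1-negative cells 899 of 8914 (10.1%) were higher and 440 (4.94%) lower, within bins 11.7% and 3.99%, and without cells lacking B2m or Cd3 genes 3.31% were higher and 18.9% lower. The genotypes differ in library quality as given above, and 1 sample stands for each. In both Klrc1 groups Il7r was higher in KO, by 2.90 in positive and 5.30 in negative cells, and Junb, an immediate early factor, by 3.34 and 3.76. Emb, a membrane chaperone of transporters, was higher by 2.68 and 5.01. Without cells lacking B2m or Cd3 genes Junb was higher by 2.29 in negative cells. Pdcd1 was lower in KO by a difference of -5.18 and -3.84, Lag3 by -5.03 and -2.98, and Havcr2 by -4.04 and -3.34. Rgs16, a regulator of G protein signalling, differed by -3.05 and -3.12. Of 35 proliferation genes, 26 were lower in KO by at least 1 in positive cells and 20 in negative cells, or 17 and 10 within bins. Of the naive and memory genes, 9 of 16 were higher in KO in positive cells and 15 of 18 in negative cells, or 8 and 10 within bins. Klrk1 (2.80 and 1.08) and Klrd1 (1.61 and 1.35) were also higher in KO on both sides of the split. Without cells lacking B2m or Cd3 genes the values of negative cells were 0.51 for Klrk1 and 0.42 for Klrd1. Of 16 housekeeping genes 12 were higher by at least 1 in negative KO cells, with a median of 1.82, or 0.08 without those cells; the part of library quality in these values was not tested.

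Markers of other cells were scarce on both sides but not evenly spread. At least 3 markers of macrophages, class II presentation or dendritic cells were held by 3 of 22 and 2 of 45 WT cells and by 7 of 36 and 5 of 38 KO cells. The summed FPKM of the 5 class II genes had a median of 0 in every group, with highest values of 2417 and 206112 in WT and 3032 and 133316 in KO, both extremes in Klrc1-negative cells. In KO 4 of 4 tested class II genes were lower by at least 1 in positive cells, against 2.09% of all tested genes. Their median was -1.12, or -2.18 within bins. Without cells lacking B2m or Cd3 genes it was -0.17, and with both -1.01. Any class II gene was held by 4 of 36 and 9 of 38 KO cells, so these values rest on few cells. The 12 macrophage genes summed to a median of 0 in every group and to at most 79.9 and 959 in WT and 2504 and 3269 in KO. Ms4a1, Cd79a and Pax5, which define B cells, were at 0 in every kept cell, whereas Cd79b was in 1 positive WT cell and 5 negative KO cells and differed by -1.07 in KO. Cd4 was above 0 in 1 and 5 WT cells and in 0 and 2 KO cells. Of 10 NK cell markers 5 were at 0 in all positive and 1 in all negative WT cells, and 2 and 4 in KO cells. The KO median difference of these markers was 1.47 (1.5 within bins). Of 5 tested in KO, 3 were higher by at least 1, and Fcer1g (-1.42) and Tyrobp (-0.44) were below 0. Of all tested genes 15% were higher and 2.09% lower in KO. In WT 1 of 3 tested was higher and 1 lower, with a median of 0.30 (-0.41 within bins). Any NK cell marker was held by 27 of 36 and 20 of 38 KO cells. The innate-like T cell genes summed to 0 in every positive WT cell and to at most 5801 in positive KO cells. Without cells holding 3 or more markers of macrophages, dendritic cells or class II presentation, other KO differences named above that moved by over 1.5 times included Hcst (2.75 to 1.79), Cd3g (3.46 to 2.21), Cd8b1 (2.13 to 1.20), Il2rb (2.52 to 1.58), Pdcd1 (2.28 to 1.52), Fos (-1.38 to -0.55) and Lair1 (-1.09 to -0.39). Ctsc (-0.89 to -0.33) and Psmb8 (0.48 to 0.74) did so too. Among the genes named as lower in both genotypes, Icam1 went from -0.775 to -0.03 and Syngr2 from -0.67 to -0.20 in KO. The part of these cells in other results was not tested.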

How the data were processed

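The values are FPKM per gene as deposited by the authors, scaled by TMM per the file description in the labels. The submitters' processing notes name Bowtie, RSEM and mm10, with no versions. The table holds 23420 genes with 1 column per library. Cells were kept and grouped as the report says. No molecular identifiers were used, each library was 1 well, and no doublet caller was run.

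Means of log2(FPKM + 1) were compared in Python 3.11.15 with numpy 2.4.6, pandas 2.3.3 and scipy 1.17.1, and plotted with matplotlib 3.10.9. Genes detected in 10% or more of the cells on either side entered a comparison, and a difference of at least 1 was counted as higher or lower. Differences within 4 bins of genes detected were averaged with weights for the cells in each bin. Genes are named by 1 rule: the 12 most positive and the 12 most negative in the genotype with the weaker difference, the leading 2 of each of 17 lists, and fixed markers. Other list members printed were picked after their values were seen. The members and lists were chosen with earlier results of these data known. Of 409 symbols 408 matched, 4 by an older name. Reads per cell were estimated from the steps of low FPKM with GENCODE M21 lengths. In a check on simulated data of 71 cells the median ratio to the true depth was 1.004. Some genes that this rule or the lists name are not reported here.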

Additional observations from a re-analysis of the deposited data

Results flagged for a closer look

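Among the 17 list medians and the named genes that entered both comparisons, 5 results past 1 in a genotype had opposite signs in WT and KO. Other list members named above, such as Itgb7 and Btla, did so too but were not named by the rule. Each value here is the KO difference minus the WT difference, and none of them was tested, since each genotype was 1 sample. The median of the interferon-stimulated genes gave -1.23, from 1.23 in WT and -0.00 in KO, a KO median close to 0. Il7r gave -2.39, from 0.43 and -1.97 (0.66 and -1.75 within bins). Emb gave -2.33, from 0.88 and -1.45, but its KO value was -0.69 within bins. Cd274 gave -2.32, from 0.57 and -1.76 (0.47 and -1.91 within bins). Fos gave -1.56, from 0.18 and -1.38. Its WT value was -0.33 within bins and -0.40 without cells lacking B2m or Cd3 genes, negative as in KO, and its KO value was -0.55 without cells holding markers of other cells.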

How the results depend on the processing

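The share of genes past 1 moved with most settings and is given here as a percent of the genes first tested. In Klrc1-positive cells 33.1% were higher and 0.495% lower in WT, and 15% and 2.09% in KO; in KO 4.05% were higher and 18.9% lower among positive cells, and 10.1% and 4.94% among negative cells. A pseudocount of 0.1 gave 2.71% WT lower, 26.2% and 6.1% in KO, 7.35% and 32.8% among positive and 17.1% and 13.4% among negative cells. A pseudocount of 10 gave 13.6% and 0.0539% in WT, 4.81% and 0.328% in KO, 1.16% and 4.86% among positive and 3.92% and 0.853% among negative cells. Cells with at least 2000 genes gave 18.4% and 2.01% in WT, 3.19% KO lower and 5.54% and 13.8% among negative cells, with the sign turned for Junb in WT (-0.192) and Cd8a between the negative groups (-0.204). Bins gave 13.8% and 3.08% in WT, 4.36% KO lower and 6.59% and 11.8% among positive cells, with WT Junb at -0.285 and Hmgn2 at -0.077. Leaving out cells that lack B2m or Cd3 genes gave 17.3% and 2.19% in WT and 3.28% and 18.7% among negative cells, with WT Junb at -0.360. Without Cd4 cells 8.36% were lower among negative cells. Rescaling every cell to 1000000 gave 3.59% WT lower and 7.89% lower among negative cells. Of 2 alternatives chosen after seeing the data, centring on the median gene gave 16.8% and 6.89% in WT, 4.39% KO lower and 7.51% and 11.5% among positive cells. The other, bins without cells lacking B2m or Cd3 genes, gave 9.75% and 5.6% in WT, 4.01% KO lower, 6.59% and 11.8% among positive and 6.39% and 10% among negative cells. It turned the WT proliferation median to -0.260, Ifng to -0.005, Junb to -0.738, Rnf7 to -0.404, Hmgn2 to -0.301 and Hmgb2 to -0.211. The cause was not tested. For single genes, list medians and thinned shares 2988 values of 4220 stayed within 1.5 times or the interval. In sign 4.74% of the 4220 turned, of which the 11 printed here had a first value past 1. Shallow libraries limit shares near 0. No paired analysis was possible because each genotype was 1 sample and no test was run.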
